A study of Mus musculus with 4 samples.

Results

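Within a sorted pool of mouse bone marrow stem and progenitor cells, 2537 cells carried transcripts of Mecom together with transcripts of at least 4 of 10 interferon-induced genes, and they are called interferon-responding cells, or members, here. They were chosen from 33042 cells that passed the filters (at least 1000 genes detected, at most 10% mitochondrial transcripts, and a leading hashtag with at least 10 unique molecular identifiers, UMIs, and at least 3 times the next hashtag). A member had at least 1 UMI of Mecom and at least 1 UMI in each of 4 or more genes out of Ifit1, Ifit3, Isg15, Iigp1, Ifi44, Oasl2, Rtp4, Irf7, Usp18 and Gm4951. Mecom was detected in 27272 cells, so the members were 9.30% of the Mecom cells (95% exact binomial interval 8.96 to 9.65%, counting error only) and 7.68% of all cells. The 24735 Mecom cells with 3 or fewer of the 10 genes served as the comparison and are called the other Mecom cells. The members were picked on the 10 rule genes and on Mecom, so the levels of these 11 genes are given as a description without a test.

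Type I interferons bind the receptor pair Ifnar1 and Ifnar2, whose kinases Jak1 and Tyk2 activate transcription factors that bind, together with Irf9, the interferon-stimulated response element (ISRE). Interferon gamma acts through Ifngr1 and Ifngr2 and leads to factors bound at gamma-activated sites (GAS). The induced genes encode proteins that block viral RNA and virus assembly, and in the bone marrow interferon is known to push resting haematopoietic stem cells into division and to raise Sca-1, the antigen encoded by Ly6a that is used to sort these cells. Mecom encodes a zinc-finger transcription factor that long-term stem cells need.

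The cells came from 2 male mice, both of the genotype Tppp3CreER LSLTdTomato, in which a tamoxifen-activated Cre recombinase under Tppp3 control switches on the red protein tdTomato in a cell and its descendants. Both mice received tamoxifen at P0 and P3 and were 3 months old at collection, so both gates share the genotype, the alleles and the drug. Cells sorted as Lin-Sca1+Kit+, which the submitters call HSCs and which as a sort also hold multipotent progenitors, were separated into tdTomato-positive and tdTomato-negative cells, giving 4 hashed tubes that were loaded in part on GEM-X and in part on v3.1 droplet kits. The labels name neither an interferon treatment nor an infection, and no group without tamoxifen was analysed here.

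The tubes were the replicates and came from only 2 animals. Mouse 1 gave 312 members with tdTomato and 1304 without, and mouse 2 gave 204 and 717. They held between 1873883 and 17731166 gene UMIs per tube, and the other Mecom cells between 26466455 and 100735496. The median was 9020 UMIs per member and 8482 per other Mecom cell, and in the negative tube of mouse 1 the medians were 10658 and 9364. The 2 kits shared 0 cell barcodes. Hlf, a transcription factor of stem cells and not a sort antigen, was detected in 91.7% of members and 86.1% of the other Mecom cells. The B cell gene Cd79a was detected in 0.434% and 0.38%, and a single gene does not measure purity. A setting added after the data were seen left out cells with UMIs of more than 1 B, T and NK or neutrophil marker gene. It kept 242 of 312 and 898 of 1304 members in mouse 1 (positive, negative) and 169 of 204 and 588 of 717 in mouse 2. Of the other Mecom cells it kept 2113 of 2745, 6918 of 9213, 2535 of 3058 and 7919 of 9719 in the same order of tubes.

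The promoters of Ifit1, Ifit3 and Isg15, the rule genes with the widest ratio between members and other Mecom cells, of the Ifit3 copy Ifit3b, and of the antiviral gene Rsad2 are shown to place the response element that gives this gene class its name. Each line is the strand of the gene, 5′ to 3′, from base 200 to base 21 before the start of the RefSeq transcript (GRCm38.p6), and capitals mark matches to the ISRE core GAAANNGAA or its reverse TTCNNTTTC, with overlapping matches run together.
Ifit1, chr19:34640689-34640868, plus strand: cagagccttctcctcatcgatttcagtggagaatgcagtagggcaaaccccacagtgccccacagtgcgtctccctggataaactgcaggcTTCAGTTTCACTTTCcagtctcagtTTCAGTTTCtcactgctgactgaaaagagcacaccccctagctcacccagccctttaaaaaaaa
Ifit3, chr19:34583329-34583508, plus strand: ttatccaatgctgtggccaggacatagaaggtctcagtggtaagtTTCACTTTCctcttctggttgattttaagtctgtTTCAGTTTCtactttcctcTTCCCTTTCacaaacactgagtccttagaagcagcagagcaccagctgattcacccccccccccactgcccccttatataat
Ifit3b, chr19:34607757-34607936, plus strand: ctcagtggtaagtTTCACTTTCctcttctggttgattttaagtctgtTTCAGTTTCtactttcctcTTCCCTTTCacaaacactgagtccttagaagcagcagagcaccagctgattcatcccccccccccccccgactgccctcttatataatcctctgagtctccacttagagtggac
Isg15, chr4:156200839-156201018, minus strand: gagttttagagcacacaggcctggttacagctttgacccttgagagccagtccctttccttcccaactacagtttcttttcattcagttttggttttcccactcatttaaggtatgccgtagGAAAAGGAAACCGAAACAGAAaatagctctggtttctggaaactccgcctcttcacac
Rsad2, chr12:26456473-26456652, minus strand: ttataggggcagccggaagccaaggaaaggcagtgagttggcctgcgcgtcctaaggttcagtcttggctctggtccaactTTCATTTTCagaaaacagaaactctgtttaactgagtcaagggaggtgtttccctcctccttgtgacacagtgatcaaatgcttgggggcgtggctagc

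The windows of Ifit1, Ifit3, Ifit3b and Isg15 each held 3 matches to the core, and that of Rsad2 held 1. Among 27025 gene symbols with a RefSeq promoter of 300 bases, searched on both strands, 2638 held at least 1 match (9.76%) and 199 held 2 or more (0.736%). The GAS letters TTCNNNGAA, which read the same on both strands, were found in 2582 of them (9.55%). The Ifit3 and Ifit3b windows shared an identical run of 119 bases. No match to the ISRE core was present in the promoter entries of Oasl2 and Irf7 among the rule genes. Among genes that rose in the members, those of Oasl1, Cmpk2, Xaf1 and Irf9 held none, while those of Slfn5, Ifi206, Igtp and B2m held at least 1. Among genes that fell, the entry of Ctsg held 1 match and those of Mpo, Elane and Pcna held none. Only these letters in these windows were searched. Usp18, Rtp4, Iigp1 and Gm4951 had no entry.

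The number of rule genes per Mecom cell fell away smoothly, with no gap at the threshold of 4. No rule gene was detected in 9836 Mecom cells, 1 in 8036, 2 in 4534 and 3 in 2329, the cells just outside. Of the members, 1248 (49.2%) had exactly 4 and so stood just inside, 649 had 5, 346 had 6, 169 had 7, 75 had 8, 33 had 9 and 17 had all 10. The median UMI count was 8969 for cells with 3 rule genes and 9045 for cells with 4. Members carried a median of 7 UMIs of the rule genes, with 144 in the highest cell, and together they held 23344 of the 54582 rule-gene UMIs of all Mecom cells (42.8%). The 125 members with 8 or more rule genes came from every tube, with 16 and 57 from the positive and negative tubes of mouse 1 and 17 and 35 from those of mouse 2.

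**Figure D1:**
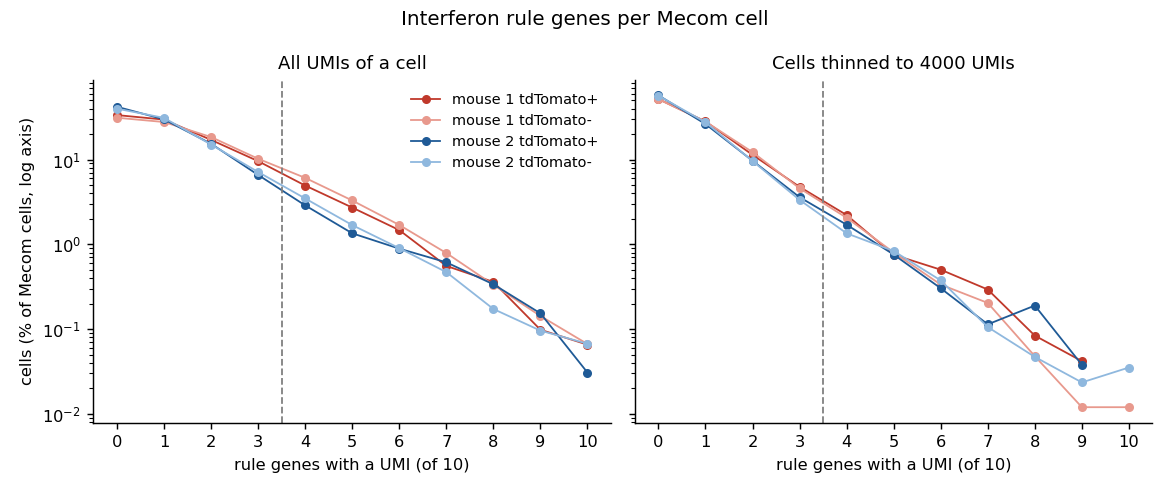
Share of Mecom cells (percent, log axis) by the number of rule genes with a UMI, for the 4 tubes, with all UMIs (left) and after every cell was thinned to 4000 UMIs (right). The dashed line is the threshold, and the shares fall steadily across it in each tube, from 8.54% with 3 rule genes to 4.58% with 4 over all tubes.

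Detection of 4 genes depends on how deeply a cell was read. The share of members went from 2.26% of Mecom cells with up to 4000 UMIs to 9.49% at 6000 to 8000 UMIs and 16.5% above 18000 UMIs. Between 4000 and 18000 UMIs it lay between 7.92% and 9.56%. The high value of the deepest cells came from the negative tube of mouse 1, at 21.98%, against 7.92%, 9.68% and 8.59% in the other tubes. When every cell was thinned to 4000 UMIs, which left out 1815 shallower cells, 28 of them members, 701 of 21916 Mecom cells met the rule (3.20%, 2.97 to 3.44%).

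Mouse 1 had the larger share of members. In mouse 1 the rule was met by 10.2% of Mecom cells in the tdTomato-positive tube (312 of 3057) and 12.4% in the negative tube (1304 of 10517). In mouse 2 the shares were 6.25% (204 of 3262) and 6.87% (717 of 10436). Both tubes of mouse 1 were thus above both tubes of mouse 2, at 11.9% and 6.72% per animal. After thinning, the shares of the animals were 3.56% (3.22 to 3.93%) and 2.85% (2.55 to 3.17%), a smaller gap between 2 animals that no test over animals can judge. The mice also differed in depth, with median Mecom cells of 9352.5 and 7789 UMIs.

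The tdTomato gates showed no difference in share that held at equal depth. The positive minus the negative gate was -2.19 percentage points in mouse 1 and -0.617 in mouse 2, a mean of -1.40 points (exact sign-flip permutation test over 2 mice, 2-sided, p = 0.5, the smallest p possible). With cells thinned to 4000 UMIs the direction turned in both mice, with 3.89% in the positive and 3.47% in the negative tube of mouse 1 and 3.11% and 2.77% in mouse 2 (mean difference 0.379 points). Within GEM-X cells the mean difference was -1.10 points and within v3.1 cells it was -1.78 points. Tppp3 itself was detected in 17 members (0.67%) and in 138 other Mecom cells (0.558%).

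**Figure D2:**
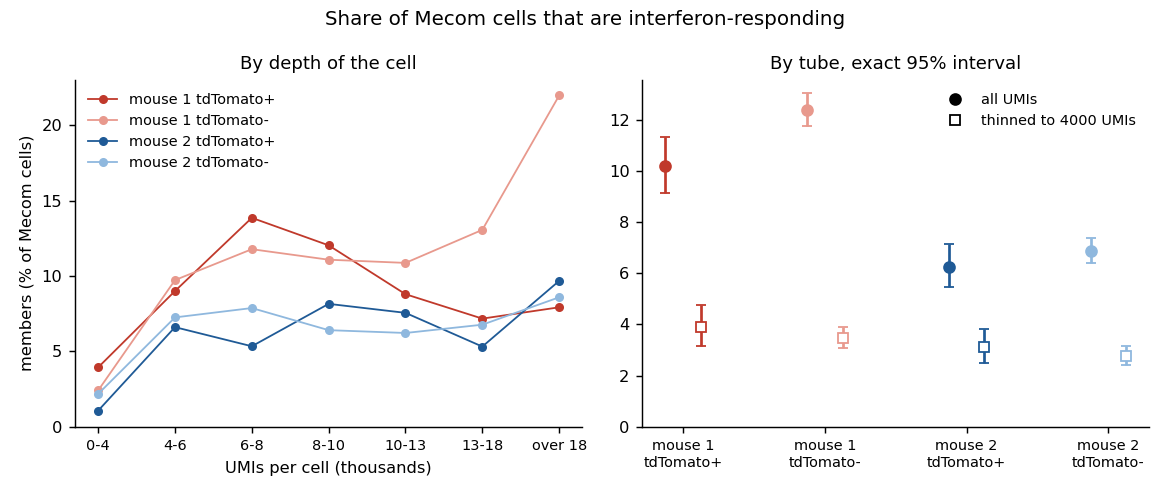
Share of Mecom cells that are interferon-responding (percent), by UMIs per cell in each tube (left) and per tube with exact 95% binomial intervals (right), where filled circles use all UMIs and open squares use cells thinned to 4000 UMIs. Mouse 1 lies above mouse 2 with all UMIs, at 10.2 and 12.4% against 6.25 and 6.87%, and the 4 thinned shares lie between 2.77 and 3.89%.

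In each tube, 4 or more rule genes were seen in a smaller share of cells without Mecom. The share with 4 or more rule genes was 5.34%, 6.82%, 2.64% and 3.75% in the Mecom-negative cells of the mouse 1 positive, mouse 1 negative, mouse 2 positive and mouse 2 negative tubes, each below the Mecom cells of its tube. The mean difference was 4.30 percentage points (exact sign-flip permutation test over 4 tubes, 2-sided, p = 0.13, the smallest p possible), and after thinning it was 1.97 points. Mecom cells were slightly shallower than cells without Mecom, with medians of 8531 and 9003 UMIs.

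The share with 4 or more rule genes varied with the state of the cell, Mecom detected or not. It was 12.6% (11.7 to 13.4%) in 6282 cells with UMIs of both Procr, a surface receptor of long-term stem cells, and Hlf, and 3.68% after thinning. It was 11.7% in 6430 cells with both Dntt and Flt3, genes of lymphoid-primed progenitors, and 2.65% after thinning. Cells with UMIs of Vwf, a platelet-biased stem cell gene, gave 9.17% and 2.64%. In 681 cells with both Elane and Ms4a3, genes of granulocyte progenitors, the share was 3.23% at a median of 21619 UMIs, and after thinning it was 1 of 675 cells (0.148%). Cells with Klf1 and Car1, erythroid genes, gave 8 of 205 (3.9%) and, after thinning, 0 of 203, with an upper exact limit of 1.8%. Free RNA in droplets can give UMIs to cells that do not express a gene, and its part in these shares was not tested.

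Each rule gene was several times higher per UMI in members, by choice of the cells. Isg15, a ubiquitin-like protein, stood at 118, 92.5, 161 and 119 CPM (UMIs of the gene scaled to a fixed total per sum, the scale used for the rule genes and for levels by number of rule genes) in the members of the mouse 1 positive, mouse 1 negative, mouse 2 positive and mouse 2 negative tubes. In the other Mecom cells it stood at 15.4, 15.4, 14.0 and 13.3, so the 2 classes did not overlap and the mean differed 8.44-fold. When Isg15 was left out of the rule and measured in Mecom cells with 4 or more of the other 9 genes, the ratio was 6.25.

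Among the other effectors, Rtp4 was the most abundant, with a mean of 154 ± 21.6 CPM in members and 27.1 ± 3.85 in the others (SD, n = 4 tubes), and it was detected in 79.3% of members. The immunity-related GTPase Iigp1 had 126 ± 24.0 and 19.2 ± 2.12, and Oasl2, of the oligoadenylate synthetase family, had 125 ± 23.4 and 20.8 ± 0.0805. Ifi44 had 114 ± 23.6 and 17.0 ± 1.35, and Gm4951 88.0 ± 30.8 and 11.7 ± 1.52. Each of these lay above the other Mecom cells in every tube.

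Ifit1 and Ifit3 had the widest ratios of the rule genes. Ifit1, which binds foreign RNA caps, had 63.0 ± 14.5 CPM in members and 3.59 ± 0.45 in the others, 17.5-fold, or 10.96-fold when left out of its own rule. Ifit3 was detected in 7.53% of members and 0.283% of the others, at 12.7 ± 3.68 and 0.288 ± 0.0893. Usp18, which removes Isg15 from proteins and restrains the receptor, had 49.96 ± 10.8 and 6.43 ± 0.776, and Irf7, a factor that sustains interferon production, had 59.1 ± 10.0 and 7.91 ± 1.76. Over all 10 genes the left-out ratio ran from 4.41 for Rtp4 to 28.5 for Ifit3. Reads of Ifit3 and the near-identical Ifit3b may have been divided by the counting, so their separate levels are uncertain.

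The members of the mouse 1 negative tube, the deepest, had the lowest level of all 10 rule genes. Iigp1 stood at 95.9 CPM there and at 117, 149 and 140 in the mouse 1 positive, mouse 2 positive and mouse 2 negative tubes. Mecom, which both classes had to carry, was 1.18-fold higher in members, with 740 ± 64.5 CPM against 630 ± 36.3 in the others. The tubes did not overlap, with a lowest member value of 683 and a highest other value of 665.

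Outside the rule, members and other Mecom cells of the same tube were compared by edgeR's quasi-likelihood test on summed UMIs, blocked by tube, and p-values were adjusted over all genes by the Benjamini-Hochberg method. In this test and in that of the gates, and for the summed levels of gene lists, CPM also carry edgeR's TMM scaling, so a gene's value can differ slightly from that on the unscaled CPM. Of 14318 genes tested, 945 rose (6.6%) and 1212 fell (8.46%) at an adjusted p under 0.05. Because the members were chosen on 10 genes of the same cells, these tests show how far a difference repeated over the tubes and are not independent evidence for a response. With all cells thinned to 4000 UMIs before the rule was applied, 609 of 12250 genes rose (4.97%) and 785 fell (6.41%). Of the genes that rose, 453 did so in both, which is 47.9% of the first and 74.4% of the thinned set, and for those that fell it was 554 (45.7% and 70.6%). Of 923 risen genes that could be tested after thinning, 901 kept their sign, and of 1194 fallen genes 1172 did.

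Antiviral genes that the rule had not read rose together: of 55 tested members of that list, 53 rose and 0 fell, with a median log2 fold change of 0.739, against 0.00582 over all genes tested. Rsad2, or viperin, an enzyme that makes a chain-terminating nucleotide, stood at 26.9, 19.6, 26.1 and 20.4 CPM in the members of the mouse 1 positive, mouse 1 negative, mouse 2 positive and mouse 2 negative tubes and at 4.17, 4.69, 2.96 and 2.96 in the other Mecom cells. No member value overlapped the others, and Rsad2 rose by 2.53 on the log2 scale (standard error 0.141, edgeR adjusted p 1.85e-09). Its neighbour Cmpk2, a nucleotide kinase, rose by 1.82 on the log2 scale.

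Genes of the oligoadenylate synthetase family were among the widest rises. The synthetases of this family start RNA decay on sensing double-stranded RNA, while Oasl1 is a synthetase-like member. Oasl1 had 41.1, 30.4, 48.5 and 36.7 CPM in members, in the same order of tubes, and 7.41, 8.02, 7.79 and 6.80 in the others, a log2 fold change of 2.30 ± 0.105 (standard error). Oas2 rose by 2.08 and Oas3 by 1.72 on the log2 scale. Slfn5, a Schlafen family protein, went from between 10.3 and 11.9 CPM to between 28.3 and 54.2 (log2 1.86), and the apoptosis regulator Xaf1 from between 41.2 and 47.2 to between 101 and 142 (log2 1.41). The members lay above the others without overlap for each of these genes.

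The inducible GTPases, which attack the vacuoles of intracellular microbes, all rose: 16 of 16 tested, with a median log2 of 1.24. Igtp had 48.9, 34.4, 59.4 and 55.6 CPM in members, in the order mouse 1 positive, mouse 1 negative, mouse 2 positive and mouse 2 negative, and 17.9, 17.2, 17.8 and 17.7 in the others, so the classes were well apart (log2 1.39). Irgm2 rose by 1.33, Irgm1 by 1.06 and Gbp7 by 0.803, and the low-level Gbp6 rose by 2.49 on the log2 scale. Tgtp1 and Tgtp2 rose by 1.41 and 1.33, but they are near-identical copies and their separate values are uncertain, as for other pairs in this family.

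DNA- and RNA-sensing proteins followed. In the HIN-200 family, nuclear DNA sensors encoded in a cluster on chromosome 1, 6 of 8 tested genes rose and 0 fell. Ifi206 rose from 3.96, 3.83, 1.95 and 2.15 CPM in the other Mecom cells to 26.6, 15.95, 21.4 and 16.9 in members (log2 2.63). The classes did not overlap. The abundant relatives Ifi203 and Mndal rose by 0.771 and 0.67. Of 11 tested sensors and adaptors, 6 rose and 0 fell, with Zbp1 at 1.80, Dhx58 at 1.38, Ddx58 (RIG-I) at 1.17 and Ifih1 (MDA5) at 0.941 on the log2 scale, while the adaptors Mavs (-0.186) and Tmem173 (0.0535) did not pass. The HIN-200 genes are similar in sequence and their division of reads is uncertain.

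**Figure D3:**
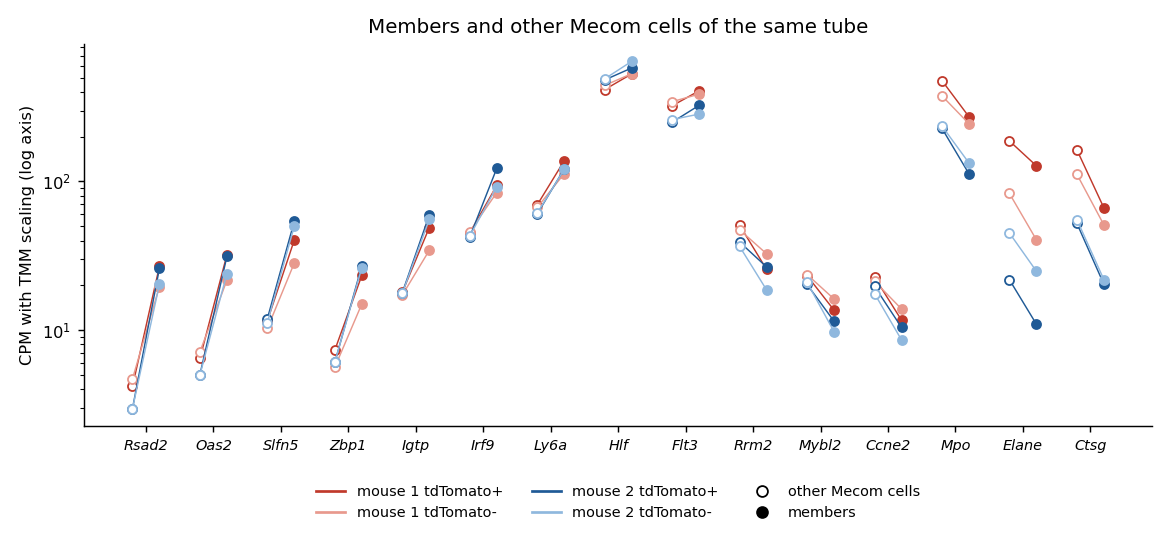
CPM (log axis) of genes outside the rule in the other Mecom cells (open circles) and the members (filled circles) of each tube, joined by a line. Rsad2, Oas2, Slfn5, Zbp1, Igtp, Irf9 and Ly6a are higher in the members of every tube without overlap between classes, and Rrm2, Mybl2, Ccne2, Mpo, Elane and Ctsg are lower in every tube.

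Transcription factors of the pathway, Irf9, Stat2 and Irf1, rose while the receptors did not pass the test. Irf9, the DNA-binding partner in the ISRE complex, had 93.9, 84.1, 122 and 92.1 CPM in the members of the mouse 1 positive, mouse 1 negative, mouse 2 positive and mouse 2 negative tubes and 45.0, 46.0, 42.3 and 42.9 in the others (log2 1.099, edgeR adjusted p 1.11e-08). The lowest member value lay well above the highest of the others. Stat2 rose by 0.835 and Irf1 by 0.493 on the log2 scale. None of the 8 tested receptor and JAK genes passed in either direction with edgeR or with DESeq2 (1 of 8 at an unadjusted p under 0.05 with each): their log2 values lay between 0.00568 and 0.0966, and Ifnar2 had 175, 182, 176 and 153 CPM in members and 167, 172, 152 and 154 in the others, which overlap. Of 7 negative regulators only the feedback inhibitor Socs1 rose (log2 0.647), with 10.5 to 16.2 CPM in members and 6.63 to 9.03 in the others.

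Interferon transcripts themselves were almost absent. None of the 21 ligand genes passed the filter on low counts. Ifnb1 had a UMI in 1 of 2537 members and Ifng in 0, which allows a share of up to 0.145% (exact 95% limit) of cells with a UMI, not of cells expressing it.

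Antigen presentation changed in part. Of 19 tested genes of the class I pathway 8 rose and 0 fell, with small sizes: the transactivator Nlrc5 rose by 0.517, H2-T23 by 0.34, the transporter Tap1 by 0.269 and B2m, the light chain, by 0.145 on the log2 scale, and after thinning 10 rose. Of 7 class II genes 4 rose. H2-Aa had 39.2, 43.7, 103 and 49.5 CPM in the members of the mouse 1 positive, mouse 1 negative, mouse 2 positive and mouse 2 negative tubes and 31.1, 32.6, 34.2 and 32.6 in the others. Cd74, the invariant chain, had 67.7, 67.6, 191 and 53.4 and 39.6, 43.9, 38.8 and 34.4. A single cell held 70.8% of the member UMIs of Cd74 and 54.5% of those of H2-Aa in the mouse 2 positive tube, which is the highest in both. Detection, which 1 cell cannot move, was 28.7% (26.9 to 30.5%) of members and 17.1% of the others for Cd74, and 20.5% and 12.2% after thinning.

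Of 8 tested chemokine and cytokine genes 6 rose and 0 fell. Cxcl10, which attracts T cells, had the largest fitted change (log2 5.004), but it was detected in only 28 members, and in each tube a single cell held between 67.2% and 89.1% of its member UMIs. It had 320 UMIs in 28 of 2537 members and 91 in 54 of 24735 other Mecom cells. With each gene's highest cell left out of each sum, a setting added after the data were seen, its log2 value was 3.74 (edgeR adjusted p 1.06e-06). Ccl5 rose by 1.65, Ccl4 by 0.54 and Ccl3 by 0.488 on the log2 scale.

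Of 6 tested surface antigens used to sort or subdivide these cells, Ly6a (Sca-1) and Ptprc (CD45, log2 0.152) rose and Cd48 (log2 -0.331) fell. Ly6a had 138, 113, 121 and 120 CPM in members, in the order mouse 1 positive, mouse 1 negative, mouse 2 positive and mouse 2 negative, and 69.6, 66.9, 60.4 and 61.2 in the others, with no overlap (log2 0.924). It was detected in 62.6% of members and 38.3% of the other Mecom cells, and in 49.9% and 25.2% after thinning. Kit (log2 0.0155) and Cd34 (log2 -0.0142) did not pass the test. All cells had been sorted as Sca-1-positive, so the gate bounds the range over which Ly6a could differ.

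Genes of stem cells and of lymphoid-primed progenitors were both somewhat higher in members. Of 19 tested stem cell genes 10 rose and 0 fell, with a median log2 of 0.124. Hlf had 529, 531, 580 and 643 CPM in the members of the mouse 1 positive, mouse 1 negative, mouse 2 positive and mouse 2 negative tubes and 415, 443, 482 and 490 in the others, which do not overlap (log2 0.341). Procr rose by 0.422, Mllt3 by 0.314 and Hoxa9 by 0.307 on the log2 scale. Of 12 lymphoid-primed genes 8 rose, among them Dntt (0.514), Flt3 (0.258) and the thymus-homing receptor Ccr9 (1.07). Dntt had 194, 181, 79.2 and 48.3 in members and 120, 136, 38.5 and 43.9 in the others, so the mice differed more than the classes did. After thinning, 6 of 19 stem cell genes and 3 of 9 lymphoid-primed genes rose.

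Most granulocyte-monocyte genes fell with all UMIs. Of 14 tested, 10 fell and 1 rose, the repressor Gfi1 (log2 0.27), and after thinning 4 of 10 fell and 1 rose. Mpo, the peroxidase of neutrophil granules, had 272, 244, 113 and 133 CPM in members, in the same order of tubes, and 477, 376, 227 and 236 in the others. It was lower in the members of each tube although the ranges overlap between the mice (log2 -0.751). Ctsg fell by 1.204 on the log2 scale, Ms4a3 fell by 0.958 and Elane fell by 0.82. Of 5 mast cell and basophil genes 2 fell and 0 rose, among them the protease gene Cpa3, which fell by 1.12, and after thinning 1 of 2 fell. Without the tube as a block, Mpo, Ctsg, Ms4a3 and Elane did not pass the test (edgeR adjusted p between 0.173 and 0.621).

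The granulocyte genes are concentrated in few cells. In the positive tube of mouse 1 a single member held 92.1% of the member UMIs of Elane, and 1 held 74.0% of those of Ms4a3. Elane was detected in 9.30% of members and 9.23% of the other Mecom cells, and Mpo in 46.9% and 50.1%. After thinning Mpo was detected in 19.4% of members and 32.8% of the others. The summed level of the 14 granulocyte-monocyte genes ran from 384 to 937 CPM in members and from 605 to 1450 in the others, lower in members in all 4 tubes.

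Some platelet, erythroid and metabolic genes fell as well. Of 13 megakaryocyte genes 3 fell and 0 rose, among them Itga2b (log2 -0.426) and the platelet glycoprotein gene Gp5 (log2 -0.836), while Pf4 did not pass (log2 -0.62, edgeR adjusted p 0.11). Of 13 erythroid genes 4 fell and 1 rose, and Gata1, the erythroid master factor, fell by 0.957 on the log2 scale. After thinning 1 of 8 erythroid genes fell and 1 rose, and the summed erythroid list was higher in members in 3 of 4 tubes, at 669 to 730 CPM against 657 to 744 in the others. Of 13 glycolysis genes 7 fell and 0 rose, among them Ldha (log2 -0.345) and Tpi1 (log2 -0.259). Of 15 immediate early genes, which also mark handling of cells, 5 rose and 1 fell, with a median log2 of 0.195.

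Replication genes were lower in members, and more so at equal depth. All 20 tested G1/S genes fell, with a median log2 of -0.41, and after thinning 19 of 20 fell with a median of -1.15. Rrm2, a subunit of the enzyme that makes deoxynucleotides, had 25.6, 32.6, 26.6 and 18.6 CPM in members and 50.8, 47.3, 39.1 and 36.5 in the others, in the same order of tubes. No tube's members reached the others (log2 -0.692). The log2 values were -0.676 for Pclaf, -0.698 for Mybl2, -0.754 for Ccne2 and -0.386 for Pcna.

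The genes of G2 and mitosis fell more widely after thinning. Of 20 tested, 4 fell with all UMIs (median log2 -0.0706), while all 20 fell after thinning (median -1.63). Thinning also changed which cells met the rule, with 701 members against 2537. With 5 or more rule genes and all UMIs, 2 of 20 fell (median -0.24). Mki67, a marker of dividing cells, was detected in 29.3% of members and 31.8% of the others with all UMIs and in 9.13% (7.102 to 11.5%) and 23.1% after thinning. Top2a was detected in 43.8% and 47.4%, and in 17.4% and 35.0% after thinning. The share of members also moved with depth, as given above, and the part of depth in the cell cycle results was not tested.

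**Figure D4:**
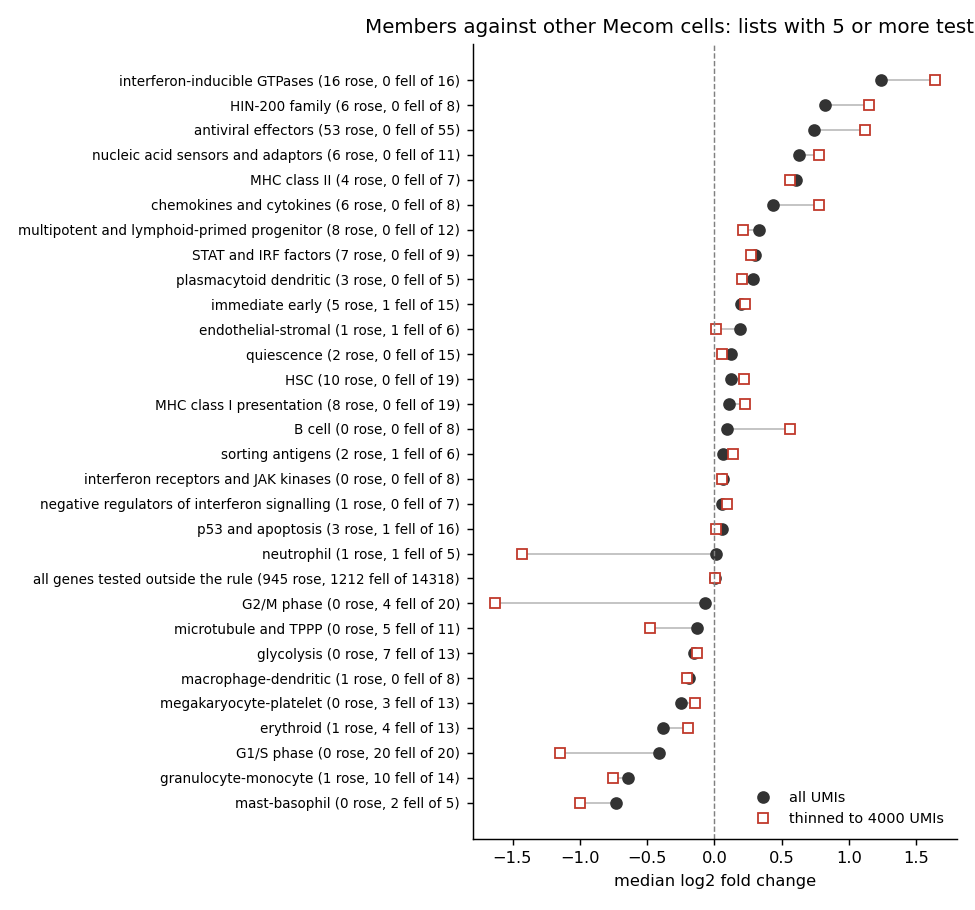
Median log2 fold change of members against other Mecom cells for each gene list with 5 or more tested genes, with all UMIs (dots) and with cells thinned to 4000 UMIs (squares), and the counts that rose and fell with all UMIs. The inducible GTPases lie highest, with a median of 1.24, the receptor and JAK list lies near 0, at 0.0608, and the G2/M list moves from -0.0706 to -1.63 on thinning.

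Marker lists of mature cell types differed in how they compared between the classes. The summed B cell list ran from 29.7 to 57.9 CPM in members and from 32.9 to 53.3 in the others, and the T and NK list from 105 to 143 and from 127 to 158, with 6 of 11 genes at 0 in members. The neutrophil list was at 9.07, 8.86 and 8.88 in 3 tubes and at 113 in the mouse 1 negative tube, where 1 cell held 93.6% of the member UMIs of S100a9 and the other Mecom cells stood at 89.2. Siglech, a receptor of plasmacytoid dendritic cells, had a UMI in 8 members (0.315%, 0.136 to 0.62%) and in 4 other Mecom cells (0.0162%). The summed plasmacytoid list, led by Bcl11a and Tcf4, which stem cells also express, was higher in members in all 4 tubes, at 650 to 761 against 584 to 680. The macrophage and dendritic list was also higher in members in all 4 tubes, at 137 to 175 against 97.4 to 127 without overlap. Of its 8 tested genes 1 rose and 0 fell. That gene was Bst2, which is also on the antiviral list, with 131, 133, 142 and 127 CPM in members and 106, 109, 86.3 and 88.0 in the others. With the B, T and NK and neutrophil marker cells left out, the added setting, 877 of 13807 genes rose and 1001 fell. With the erythroid list added, which removed most cells, 166 of 11534 genes rose and 81 fell. No setting left out cells by plasmacytoid, macrophage or dendritic genes, and the part of those cells in the results was not tested.

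Levels of Irf9, Rsad2 and Gbp6, interferon genes outside the rule, climbed with the number of rule genes detected. Over the 4 tubes summed, Irf9 went from 32.7 CPM in Mecom cells with 0 rule genes to 65.3 with 3, 81.1 with 4 and 128 with 7 to 10. This is a description along the rule and not a test. Rsad2 went from 2.30 to 6.88, 11.05 and 81.2 over the same steps, and Gbp6 from 0.798 to 2.68, 5.28 and 21.2. In these genes, cells just outside the threshold thus stood between the cells with 0 rule genes and the members. Not every interferon gene did so. Over the same steps Psmb8, of the class I pathway, went from 339 to 319, 329 and 358, and Cxcl10 from 0.237 to 0.233, 11.3 and 45.0.

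Stem cell and lymphoid-primed genes were higher, and granulocyte genes lower, at the far end of the same axis. Hlf went from 395 with 0 rule genes to 525 with 3 and 626 with 7 to 10, Flt3 from 285 to 321 and 404, and Dntt from 78.7 to 116 and 165. Mpo was at 401 with 0 rule genes, 207 with 3, 227 with 4 and 127 with 7 to 10, and Elane was at 106, 32.1, 56.9 and 7.36. The step up from 3 to 4 did not hold in each tube. Elane went from 37.5 to 240 in the mouse 1 positive tube, where a single member held most of its member UMIs, and from 7.57 to 39.9 in the mouse 2 negative tube. It went from 47.1 to 34.8 in the mouse 1 negative tube and from 17.3 to 4.87 in the mouse 2 positive tube. Mpo moved in the same direction as Elane in each tube. Median depth went from 8296 UMIs with 0 rule genes to 8969 with 3 and 8886 with 7 to 10. Within tubes it differed in direction, from 9248.5 to 9768 and 11748.5 in the mouse 1 negative tube and from 8950 to 8868 and 7431 in the mouse 1 positive tube.

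**Figure D5:**
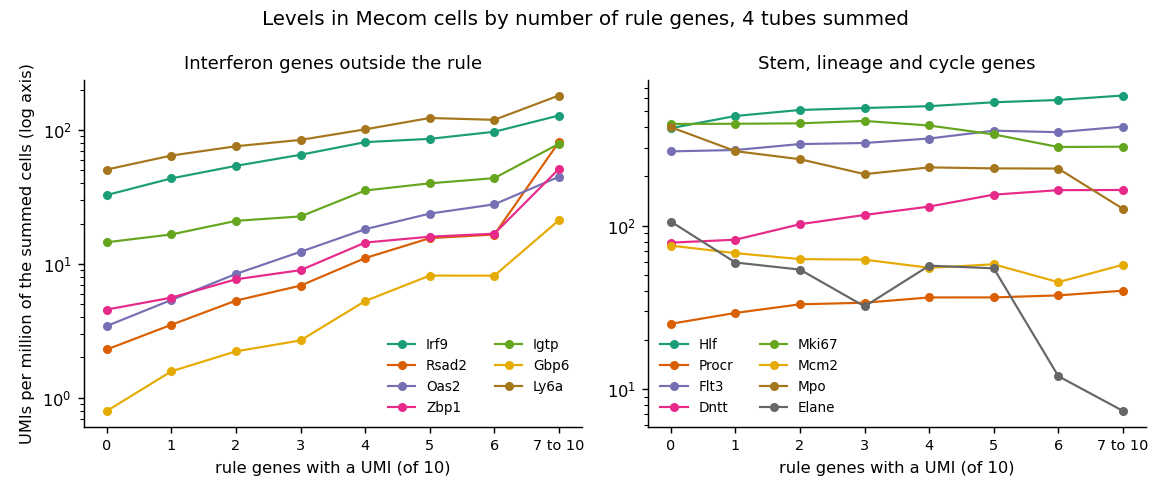
CPM (log axis) in Mecom cells of the 4 tubes summed, by the number of rule genes with a UMI, for interferon genes outside the rule (left) and genes of stem cells, lineages and the cell cycle (right). Irf9 goes from 32.7 to 128 and Mpo from 401 to 127 between cells with 0 and with 7 to 10 rule genes.

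Rule genes appeared together within cells to differing degrees. In 21916 Mecom cells thinned to 4000 UMIs, Ifit3 was detected in 5.26% of cells with Ifit1 and in 0.388% of cells without it, and the pair was seen 9.29 times as often as the product of its shares. The ratio was 3.66 for Ifit1 with Usp18 and 4.86 for Ifit1 with Rsad2. Iigp1 and Gm4951 gave 2.78.

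Gbp6 and Cd74, genes outside the rule, went with some rule genes more than with others. Gbp6 gave its highest ratio with Ifit3, 6.71, from 9 cells with both. It gave 3.66 with Gm4951, 3.53 with Iigp1, 2.66 with Ifit1 and 1.70 with Isg15. Cd74 was detected in 22.1% of cells with Gm4951 and 22.6% of cells with Iigp1, but in 13.1% of cells with Usp18 and 14.9% of cells with Isg15, against 12.4% of cells without Usp18. Mki67 gave ratios below 1 with each of the 10 rule genes, from 0.376 with Ifit1 to 0.85 with Usp18. All pairs share the same libraries and cells, and these ratios are given without a test.

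Between the tdTomato gates, the members differed in few genes. In the edgeR quasi-likelihood test on 4 sums with the mouse as a block, 24 of 12214 genes were higher in the positive gate (0.196%) and 5 were lower (0.0409%), with 1 residual degree of freedom per gene. The 24 include 2 rule genes, Isg15 and Ifit1. Outside the rule genes and Mecom, 22 of 12203 genes were higher and 5 were lower. The members were chosen on detection of the rule genes, so the levels of these genes are given as a description without a test. Member depth also differed, with medians of 8496.5 and 10658 UMIs in the positive and negative tubes of mouse 1 and 8168.5 and 7759 in mouse 2. For Isg15 the positive and negative tubes stood at 118 and 92.8 CPM in mouse 1 and at 157 and 115 in mouse 2 (log2 0.405). For Ifit1 they stood at 67.7 and 43.5 in mouse 1 and 76.1 and 61.1 in mouse 2 (log2 0.507). All 10 rule genes were higher in the positive gate with all UMIs, by 0.185 to 0.588 on the log2 scale, and after thinning 6 of 10 were higher. In the edgeR test after thinning, 2 genes in all rose and 1 fell (429 at an unadjusted p under 0.05).

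Histone genes made up 12 of the 24 genes higher in the positive gate, at log2 values of 0.516 to 0.989. They were higher in both mice, by 0.181 to 0.882 in mouse 1 and 0.727 to 1.21 in mouse 2. Mki67 had 419 and 401 CPM in the positive and negative tubes of mouse 1 and 505 and 220 in those of mouse 2, so its rise (log2 0.611) came from mouse 2. None of the 12 histone genes passed within GEM-X or within v3.1 cells alone, where 1 and 23 genes passed in all. Their log2 values ran from 0.446 to 0.869 within GEM-X cells. Within v3.1 cells they ran from -0.315 (Hist1h1c) to 0.178 (Hist1h2ae), so the direction did not hold there, and Hist1h2af had no value. With DESeq2 1 of the 12 passed, after thinning 1, and without the mouse block 0. Without the highest cell of each sum all 12 passed.

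The other calls between the gates rested on single cells in part. In the mouse 2 positive tube 1 member held 70.8% of the Cd74 UMIs (log2 between gates 0.917), and without the highest cell of each sum the value was 0.0388. S100a8 and S100a9 were lower in the positive gate (log2 -2.82 and -2.83) through 1 member of the mouse 1 negative tube with 90.8% and 93.6% of their UMIs. Elane was higher (log2 1.05) through 1 member of the mouse 1 positive tube, and its value in mouse 2 was -1.18. Cxcl10 was higher in the positive gate of both mice, by 2.54 and 2.69, but in GEM-X cells alone its value was -1.63 (edgeR adjusted p 0.9999). Without the highest cell of each sum the Cxcl10 value was 2.55, and after thinning it was 1.96. In each tube a single cell held between 67.2% and 89.1% of its member UMIs. Tppp3, the gene that drives the label, had too few UMIs in members for the test.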

How the data were processed

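Single-cell RNA libraries and hashtag libraries of 4 tubes were used. The authors deposited matrices of raw counts (UMIs) for each gene and barcode. Per the file headers, Cell Ranger made them, in version 8.0.1 for GEM-X and version 7.1.0 for the v3.1 kit, while the submitters' processing notes name Cell Ranger 7.0.0 and mm10. No label ties a matrix to a kit: the matrix named GEMX was taken as GEM-X and the one named GEM, from the older Cell Ranger version, as v3.1, so each value given by kit rests on that reading. Of 20511 and 17755 barcodes, 371 and 1034 failed the gene or mitochondrial filter and 1846 and 1973 the hashtag filter, which also removes doublets between tubes. Doublets within a tube were not removed, since Scrublet called 0 cells. Of the members, 10.0% (GEM-X) and 11.8% (v3.1) were among the top 5% of Scrublet scores, so high doublet scores were more frequent in members than in all cells.

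Counts were summed per tube and class over both kits. edgeR 4.0.16 (R 4.3.3) was run with TMM scaling, filterByExpr, the quasi-likelihood test, a trended dispersion of at least 1e-04 and Benjamini-Hochberg adjustment at 0.05. Tube (8 sums, 3 residual degrees of freedom) or mouse (4 sums, 1 residual degree of freedom) was a block, because the classes of a tube, and the gates of a mouse, are from 1 animal each. The p-values rest on 2 mice. Thinning drew 4000 UMIs from each cell before the rule was applied. DESeq2 1.42.0 was an alternative. The fits were also run on simulated counts with no mouse or tube effect and no cell that dominates a gene. That run checked the code and cannot show how the fits behave on these data. Exact binomial intervals cover counting error only.

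The members and the gene lists were chosen with earlier results of these data known. Genes were named by a rule: the rule genes, the largest changes (up to 12 that rose and 10 that fell, mean of at least 10 CPM, same sign in all tubes and both kits, no unnamed models or near-identical families), and up to 6 genes of each list. Mavs, Tmem173, Siglech, Prg2 and the genes of the co-detection ratios were added after their values were seen.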

Additional observations from a re-analysis of the deposited data

Results flagged for a closer look

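The difference between members and other Mecom cells was tested for a change between gates and between kits, with an interaction term in edgeR added after the data were seen. Of 14926 genes, 1 differed between the gates. Prg2, an eosinophil granule protein, had an interaction of -9.30 on the log2 scale (edgeR adjusted p 4.59e-04). A single other Mecom cell of the mouse 1 positive tube held 1432 of its 1440 UMIs there, and 1 member held 20 of the 27 UMIs of all members. Of 13663 genes, 3 differed between the kits, and all encode neutrophil granule or cytosolic proteins. The member difference was larger in 1 kit than in the other by 3.59 for S100a8 (edgeR adjusted p 8.90e-05), by 4.27 for S100a9 (0.00818) and by 4.65 for Camp (0.00239) on the log2 scale. For S100a8, S100a9 and Camp, 1 member read with the v3.1 kit held 84.6%, 88.8% and 93.5% of the UMIs of all members.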

How the results depend on the processing

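The comparison of members with other Mecom cells gave 2157 changed genes in all. The count was 679 with v3.1 cells only, 1394 after thinning, 247 with other cell types left out (erythroid list included, which removed most cells), 3743 against cells with 0 rule genes, 1312 with DESeq2 and 463 with no replicate block, where 57.7% of calls were higher against 43.8%. With other cell types left out 67.2% were higher, and with no low-count filter 34.3%. Leaving out 1 tube gave 1268 (mouse 1 positive) to 2116, and 1371 without the mouse 2 negative tube. Between gates, 29 genes became 1 with GEM-X cells only, 149 and 89 with 3 or more and 5 or more rule genes, 1 with 2 or more Mecom UMIs, 3 after thinning, 6 with other cell types left out, 3 with DESeq2, 58 with no low-count filter and 1 with no replicate block, the fit that drops the pairing by mouse. In settings added after seeing the data it became 2 without the top 5% of Scrublet scores, 1 without B, T, NK and neutrophil marker cells and 50 without each gene's highest cell. Leaving out 1 tube gave 1 (mouse 1 positive) to 162 (mouse 1 negative), and 2 without the mouse 2 positive tube; the remaining lone sample is then assumed to vary like the others.

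The difference in share between gates turned to 0.379 after thinning and 0.237 with other cell types left out, and ran from -2.19 to -0.617 by mouse. The difference by Mecom detection stayed positive in the settings run, from 1.97 to 7.80 points, and from 3.87 to 4.69 without 1 tube. Of 128 named genes in the first comparison 10 turned in some setting: Lcn2 0.623 with 3 or more rule genes; Jun -0.038, Zfp36 -0.0333, Aurkb 0.22, Stat3 -0.00142 and Gp5 0.141 with other cell types left out; Eno1 0.0108, Apoe 0.00916 and Prtn3 0.0517 after thinning. Camp was -2.73 in GEM-X cells, -3.29 with 5 or more rule genes, -2.10 after thinning, -2.68 without top scores, -1.91 without highest cells, -0.384 with DESeq2 and, with 1 tube left out, -1.27 (mouse 1 negative) to 1.09. Only 45 of the 128 genes passed in every setting that gave them a value. Without turning, 64 lost the call with no replicate block and 48 with other cell types left out. Of 14 named genes between gates 7 turned, and in GEM-X cells 0 passed in the same direction. Cst3 was -0.209 and Cd74 -0.259 after thinning, Cd74 -0.253 and Auts2 0.106 with other cell types left out, and Cd74 -0.0534 without B, T, NK and neutrophil marker cells. In GEM-X cells Cxcl10 was -1.63, Elane -2.32 and Ms4a3 -0.30. With 5 or more rule genes Elane was -1.07 and Ms4a3 -0.399. S100a9 was 0.324 without top scores, 0.132 without highest cells and, with 1 tube left out, -3.52 to 0.13 (mouse 1 negative). Elane was -1.05 without highest cells, and with 1 tube left out Elane ran from -1.60 (mouse 1 positive) to 1.93 and Ms4a3 from -0.354 (mouse 1 positive) to 1.67. The cause was not tested. Scrublet called no cell, so that planned setting gave no value.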
